A study of Mus musculus with 4 samples.

Results

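Expression of 5 genes of the promyelocyte primary granule programme, *Mpo*, *Elane*, *Prtn3*, *Ctsg* and *Ms4a3*, was examined in LSK-SLAM cells of *BRE–GFP* transgenic mice. The members were fixed by name, with earlier results of these data known. All 5 were found among the 23906 gene symbols that each file lists. RNA was sequenced from 4 libraries, 1 each of GFP+ and GFP- cells from fetal liver (FL) at embryonic day 14 and from adult bone marrow (BM). All cells, GFP+ and GFP- alike, carried the *BRE–GFP* transgene, in which a BMP responsive element drives GFP, on a C57BL/6 background. GFP thus reports current BMP signalling. LSK-SLAM cells are negative for lineage markers and CD48 and positive for Sca1, cKit and CD150, a profile that enriches for haematopoietic stem cells (HSCs). The lineage stain held the myeloid marker CD11b for adult BM only, and Ficoll separation is described for BM cells only. Tissue, fetal or adult stage and these steps of preparation cannot be told apart in any contrast of FL with BM. The number of embryos or mice behind a library and the age of the adult mice used for sequencing are not given in the sources used here. With 1 library per group there are no replicates, so a difference between single libraries has no error and no test.

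Primary, or azurophil, granules are the first granules that a developing granulocyte makes, at the promyelocyte stage. Their enzymes are packed and stored, and transcription of their genes stops as the cell goes on to make the secondary and tertiary granules of the late neutrophil. *Mpo* encodes myeloperoxidase, which makes hypochlorous acid. *Elane*, *Prtn3* and *Ctsg* encode the serine proteases neutrophil elastase, proteinase 3 and cathepsin G. *Ms4a3* encodes a membrane-spanning protein and not a granule enzyme, and its expression marks granulocyte-monocyte progenitors (GMPs). In adult BM these genes are typical of GMPs and promyelocytes, while immunophenotypic HSCs are generally held to express them at low levels.

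The genes lie at 4 places in the genome. In the GENCODE vM1 annotation of NCBI37/mm9, *Mpo* is on the plus strand of chromosome 11 from 87607083 to 87617915, with 14 exons in its longest transcript. *Prtn3* and *Elane* are neighbours on the plus strand of chromosome 10, from 79337221 to 79345919 and from 79349057 to 79350961, with 3138 bases between them. *Ctsg* is on the minus strand of chromosome 14 from 56718718 to 56721411, and *Ms4a3* on the minus strand of chromosome 19 from 11703987 to 11715341. *Elane*, *Prtn3*, *Ctsg* and *Ms4a3* have 5 exons each in their longest transcript.

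Because all 5 genes were higher in the BM, as set out after the sequences, the 250 bases before each RefSeq start were searched for short motifs of myeloid transcription factors. All 5 members matched a RefSeq promoter of build GRCm38.p6, and each was found once, letter for letter, in NCBI37/mm9, whose coordinates are given. The letters GGAAGT, the core that ETS family factors such as PU.1 bind, were present in all 5, always on the strand of the gene. This motif was picked after the sequences had been seen. It occurred on either strand in 19.7% of the upstream stretches of the same length at all 32851 RefSeq starts. The 39 bases around each match, aligned on the motif, are shown with GGAAGT in capitals, each 5′ to 3′ on the strand of the gene and outside annotated exons. The RefSeq start of *Prtn3* lies inside the longer GENCODE span of that gene, so its stretch is intronic in some GENCODE transcripts. That of *Mpo* lies inside the GENCODE gene as well, with 203 of the 250 bases in annotated exon, and the bases shown for *Mpo* end just before the GENCODE start.
Mpo, chr11:87607044-87607082: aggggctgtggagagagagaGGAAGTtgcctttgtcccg
Elane, chr10:79348954-79348992: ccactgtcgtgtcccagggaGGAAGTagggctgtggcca
Prtn3, chr10:79342299-79342337: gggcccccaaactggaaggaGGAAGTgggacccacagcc
Ctsg, chr14:56721598-56721636: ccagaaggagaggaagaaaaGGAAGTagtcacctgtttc
Ms4a3, chr19:11715378-11715416: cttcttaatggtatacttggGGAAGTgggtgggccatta

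The first base of the motif lay 55 bases before the RefSeq start of *Ms4a3*, 83 before that of *Elane* and 93 before that of *Prtn3*, and farther away at *Ctsg* and *Mpo*, at 205 and 222 bases. A related PU.1-type core, GAGGAA, was found in 4 of the 5 genes (23.3% of all starts) and was not found in *Ms4a3*. At *Mpo*, *Elane* and *Prtn3* it overlapped GGAAGT, beginning 224, 85 and 95 bases before the start, so these are not separate sites. Matches apart from GGAAGT lay only at *Ctsg* (216 bases) and *Mpo* (247 bases). The letters AACNG, a MYB-type core, were found in 4 of the 5 (74.2% of all starts). The RUNX-type core TGTGGT was found in *Ctsg* alone (14% of all starts), and the C/EBP-type core TTGCNNAA in none of the 5 (9.56% of all starts). These are matches of letters on both strands and not measurements of binding. The whole stretch before *Elane*, the gene with the largest tissue difference of the 5 in the fit across genes, spans chr10:79348807-79349056 and is shown as longer context, with GGAAGT again in capitals.
Elane upstream: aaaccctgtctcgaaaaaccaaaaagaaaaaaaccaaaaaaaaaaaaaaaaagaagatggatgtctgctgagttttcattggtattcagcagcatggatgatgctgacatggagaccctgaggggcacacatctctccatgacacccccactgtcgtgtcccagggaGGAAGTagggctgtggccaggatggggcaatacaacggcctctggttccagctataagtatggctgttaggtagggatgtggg

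The values are FPKM, counts of fragments scaled to transcript length and library size, so that levels of different genes within a library can be ordered. Labels and markers were first set side by side. *Igf2bp1* and *H19*, which are characteristic of fetal cells, had FPKM of 58.8 to 426 and 42.1 to 44.7 in the FL libraries and at most 0.037 in the BM libraries. The GFP label was not settled by any value used here. Bars for BMP receptor and Smad genes in the study's own display resemble these libraries with both the tissue and the GFP label exchanged. The fetal genes go with the deposited tissue labels, which were kept, but every direction between GFP+ and GFP- cells given here holds only for the libraries as labelled and would turn if the GFP labels were exchanged. The sort genes *Kit*, *Ly6a* (Sca1) and *Slamf1* (CD150) were detected in all 4 libraries, but *Cd48*, whose product the sort excluded, had an FPKM of 17.4 to 51.4 in the FL and 126 to 267 in the BM. Markers of mature cells were also far higher in the BM. The summed FPKM of 15 late neutrophil granule genes was 49.2 to 68.3 in the FL libraries, 7564 in BM GFP- cells, then 54171 in BM GFP+ cells. That of 8 B cell genes was 43.5 to 96.3, 955 and 3493, and that of 9 erythroid genes was 914 to 1038, 3229 and 20698. Granule genes of eosinophils, basophils and mast cells (14 genes) summed to 0 to 83.4, 1248 and 9541. Of 9 stem cell genes, 8 were more than 2-fold higher in BM GFP- than in BM GFP+ cells and 0 the reverse. Among all genes that reached an FPKM of 1 in any library, 22.9% were more than 2-fold higher in BM GFP- cells. The stem cell gene *Procr* was at 60.8 to 113 in 3 libraries and listed at 0 in BM GFP+ cells. Bulk RNA cannot separate a larger share of granulocyte precursors from more transcript per LSK-SLAM cell. The part of such cells in the results that follow was not tested beyond the values given beside them.

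In the BM, primary granule transcripts were among the most abundant of all. *Mpo* reached an FPKM of 5777 in the GFP+ fraction and 4754 in the GFP- fraction, the 18th and 8th highest of the genes detected. *Elane* followed with 3991 and 3042, ranks 32 and 17. *Ctsg* and *Prtn3* were close to each other, with 1762 and 1868 for *Ctsg* and 1559 and 1210.5 for *Prtn3*. *Ms4a3* was lowest, at 356 and 357. The order *Mpo*, *Elane*, *Ctsg*, *Prtn3*, *Ms4a3* was thus the same in both BM libraries, and the 5 genes held 1.34% of all FPKM in GFP+ and 1.54% in GFP- cells. All 5 ranked within the first 500 genes of each BM library.

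In the FL the same genes were detected in every library, but at a lower level and in another order. *Mpo* stood at 247 FPKM in the GFP+ fraction and 117 in the GFP- fraction, and *Prtn3* had 222 and 129.8. They were thus the highest of the 5 members in both FL libraries. *Elane* had 79.9 and 11.7. *Ctsg* had 11.4 and 27.1, and *Ms4a3* had 14.7 and 4.34. The 5 genes together held 0.089% of all FPKM in the GFP+ and 0.054% in the GFP- fraction. *Mpo* and *Prtn3* stood at the 94.9th to 96.6th percentile of the genes detected in these libraries, whereas *Ms4a3* stood at the 44.1st to 54.6th. No member was at 0 in any library, and none shared its values with another symbol. The precision of a single FPKM is not given in the files. In genes with 1 annotated transcript the low values gathered near a product of FPKM and length of 70 in both FL libraries and BM GFP- cells and of 110 in BM GFP+ cells. Taken as the worth of 1 read, this puts the lowest member value, *Ms4a3* in FL GFP- cells, at roughly 93.1 reads. *Elane* in the same library rested on roughly 154 reads and *Ctsg* in FL GFP+ cells on roughly 164. These are rough guides to counting error only, since the libraries were amplified and carried no molecular identifiers.

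**Figure D1:**
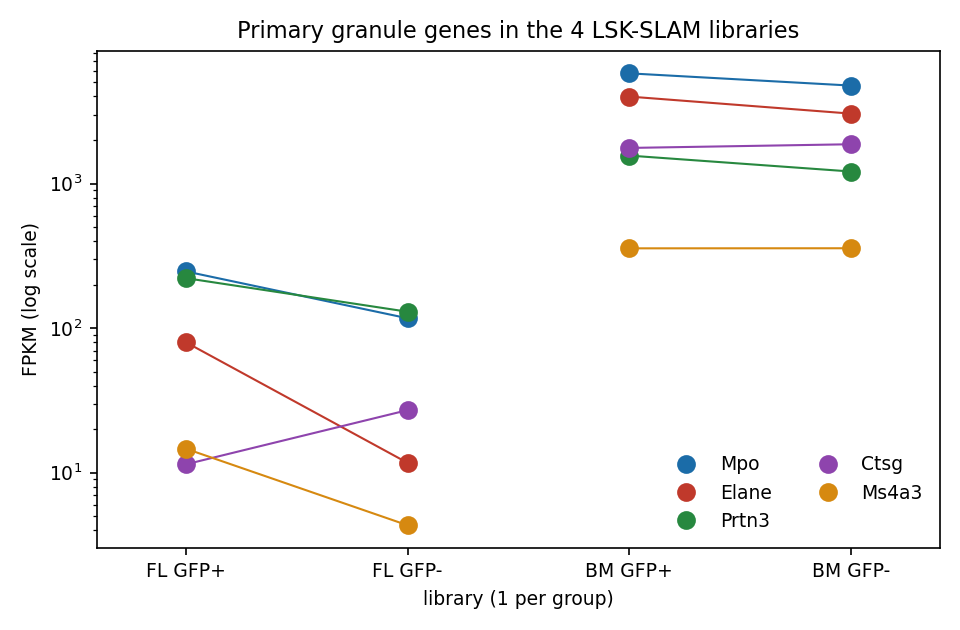
FPKM (log axis) of the 5 genes in each of the 4 libraries, 1 point per gene and library, with lines joining the GFP+ and GFP- libraries of a tissue. All 5 points of each BM library lie between 356 and 5777, whereas those of the FL libraries lie between 4.34 and 247.

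The make-up of the set also differed, which can be read within a library and so does not depend on scaling between libraries. Relative to *Mpo* in the same library, *Prtn3* stood at 89.8% (GFP+) and 110.9% (GFP-) in the FL, against 27.0% and 25.5% in the BM. *Elane* went the other way, with 32.4% and 10.01% in the FL but 69.1% and 64.0% in the BM. *Ctsg* was at 4.63% and 23.1% in the FL, then 30.5% and 39.3% in the BM. *Ms4a3* kept to between 3.70% and 7.50% of *Mpo* in all 4 libraries. *Prtn3* and *Elane*, although adjacent on chromosome 10, were therefore in opposite order in the tissues. The annotated span of *Prtn3* overlaps that of the expressed gene *BC005764*, and the part of the overlap in the *Prtn3* values was not tested.

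**Figure D2:**
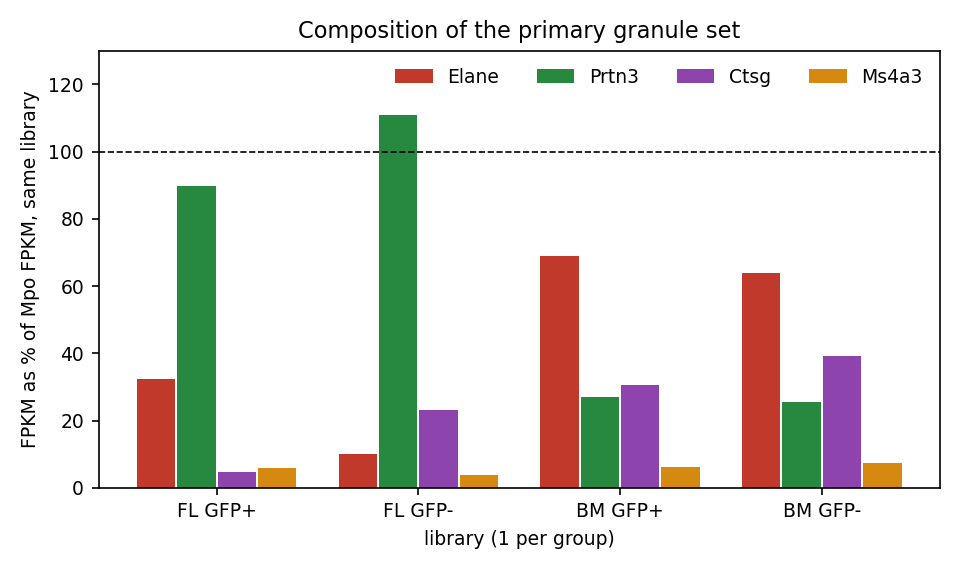
FPKM of *Elane*, *Prtn3*, *Ctsg* and *Ms4a3* as a percentage of the FPKM of *Mpo* in the same library, with 1 bar per gene and library and a dashed line at the level of *Mpo*. *Prtn3* bars stand at 89.8% and 110.9% for the FL but 27.0% and 25.5% for the BM, whereas *Elane* bars are taller in the BM.

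The tissue contrast was taken first within each fraction. Among GFP+ cells, FPKM was higher in the BM than in the FL by 154-fold for *Ctsg*, 49.9-fold for *Elane*, 24.3-fold for *Ms4a3*, 23.4-fold for *Mpo* and 7.03-fold for *Prtn3*. Among GFP- cells it was higher in the BM by 259.8-fold for *Elane*, 82.3-fold for *Ms4a3*, 69.0-fold for *Ctsg*, 40.6-fold for *Mpo* and 9.32-fold for *Prtn3*. All 5 were thus more than 2-fold higher in the BM in both fractions, and *Prtn3* had the smallest difference in each. Of the 13609 genes that reached an FPKM of 1 in any library, 32.1% were more than 2-fold higher in BM than in FL GFP+ cells and 24.1% the reverse. For GFP- cells these shares were 20% and 19.2%. The median log2(FPKM + 1) ratio of FL to BM was -4.54 over the members and -0.029 over all these genes in GFP+ cells, and -6.06 and -0.034 in GFP- cells.

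The tissue contrast is repeated across the GFP fractions and could be fitted over the whole table with limma, on log2(FPKM + 1) with tissue and GFP as terms. In this fit the log2 difference of FL from BM was -6.76 for *Elane* (SE 0.49, adjusted P = 0.00026) and -6.60 for *Ctsg* (SE 0.36, adjusted P = 7.2e-05). For *Ms4a3* it was -5.29 (SE 0.47, adjusted P = 0.00077), for *Mpo* -4.94 (SE 0.32, adjusted P = 0.00015) and for *Prtn3* -3.01 (SE 0.30, adjusted P = 0.0013). All 5 members passed an adjusted P of 0.05 with lower values in the FL, in 4 of 4 comparisons of an FL with a BM library. Over the 11707 genes tested, 2.46% passed and 2.17% did so with lower values in the FL. Since the members were chosen with earlier results of these data known, these shares are a background and not a test of the set. The fit leaves 1 residual degree of freedom per gene and borrows its spread from other genes of like level. That residual is how far the tissue difference varies between the GFP fractions, and not a spread of replicates. The SE and P values of this fit, for tissue and for GFP, therefore do not measure variation between repeated samples. Without that trend in the spread limma passed no gene of the 11707 (0 genes), with an adjusted P of 0.072 to 0.17 for the members. Without BM GFP+ or without BM GFP- cells no member passed (0 of 5, adjusted P = 0.27 to 0.57), and without FL GFP+ or without FL GFP- cells *Prtn3* did not (adjusted P = 0.069 and 0.090). Other gene groups passed with the members, namely 13 of 15 late neutrophil granule genes, 5 of 8 B cell genes, 4 of 9 erythroid genes and 6 of 12 genes of eosinophil, basophil and mast cell granules, all lower in the FL. None passed of the 9 stem cell genes, the 9 monocyte and macrophage genes or the 5 hepatocyte genes tested (0 of each).

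**Figure D3:**
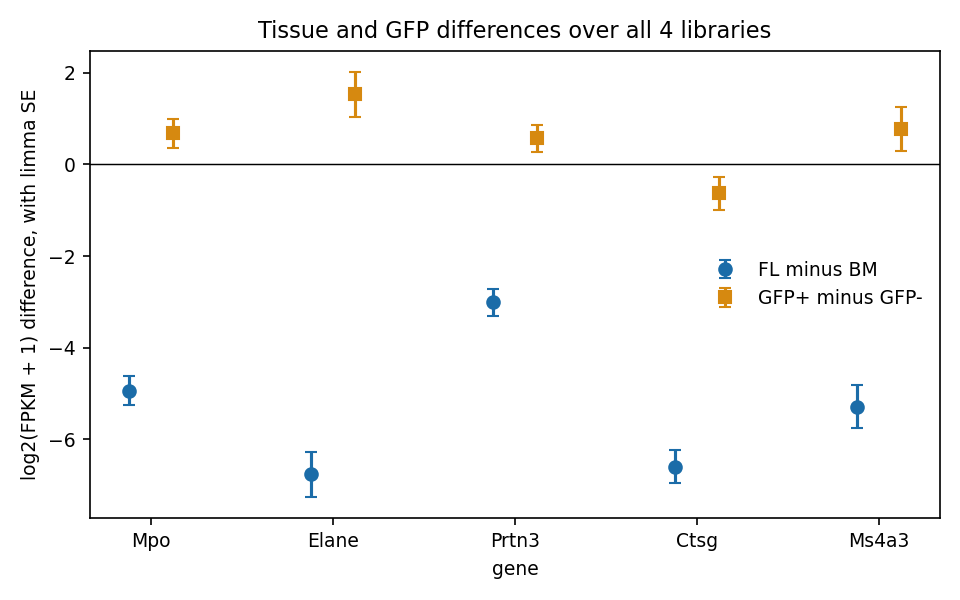
Difference in log2(FPKM + 1) of each gene between the tissues (FL minus BM, circles) and between the fractions (GFP+ minus GFP-, squares) in the limma fit of all 4 libraries, with bars for 1 SE. The tissue differences run from -3.01 for *Prtn3* to -6.76 for *Elane*, and the GFP differences from -0.63 for *Ctsg* to 1.53 for *Elane*.

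Between the fractions of the FL, as labelled, the members differed in direction. The FPKM of *Elane* was 6.82-fold, that of *Ms4a3* 3.38-fold and that of *Mpo* 2.11-fold higher in GFP+ cells. *Prtn3* was 1.71-fold higher. *Ctsg* differed in the other direction and was 2.37-fold higher in GFP- cells. More than 2-fold higher in GFP+ cells were 3 of 5 members, against 16.6% of all genes, and more than 2-fold higher in GFP- cells was 1 of 5, against 28% of all genes. The value for *Mpo* lay close to the threshold, and its log2(FPKM + 1) ratio of 1.07 went to 0.82 with all libraries scaled to 1 FPKM total and to 0.85 with scaling to 1 upper quartile. Genes that reached an FPKM of 1 in all libraries (8311 genes) had a median log2 ratio of 0.21 in this contrast as deposited. Of 6 hepatocyte genes, 4 were more than 2-fold higher in FL GFP+ cells and 1 in FL GFP- cells. The most abundant were *Alb* and *Afp*, with 139.5 and 149 in GFP+ against 9.49 and 5.66 in GFP- cells. Of 25 genes of GMPs and their regulators, 7 were more than 2-fold higher in GFP+ cells and 3 in GFP- cells. Among them *Csf1r*, the gene of the receptor for M-CSF, had 9.56 against 0.018, whereas *Gfi1* had 0.15 against 20.9. Of 9 monocyte and macrophage genes, 5 were more than 2-fold higher in FL GFP- cells and 3 in GFP+ cells. For 15 late neutrophil genes these counts were 8 and 3, and for 12 genes of eosinophil, basophil and mast cell granules 7 and 0. Some late neutrophil calls rested on values near 0, such as *Chil3* (0 in GFP+, 0.028 in GFP-) and *Cd177* (0 and 0.041). Summed FPKM went the other way for late neutrophil genes (68.3 in GFP+, 49.2 in GFP-) and for monocyte and macrophage genes (49.5 and 39.4). Granule genes of eosinophils, basophils and mast cells summed to 0 and 83.4. The part of these lists in the member differences was not tested.

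In the BM the same contrast, again as labelled, was small. The FPKM in GFP+ cells was 1.31 times that in GFP- cells for *Elane*, 1.29 times for *Prtn3*, 1.22 times for *Mpo*, 0.999 times for *Ms4a3* and 0.943 times for *Ctsg*. None of the 5 differed by more than 2-fold (0 of 5), whereas 19.7% of all genes were more than 2-fold higher in GFP+ and 22.9% in GFP- cells. The direction depended on scaling. With every library brought to the same FPKM total, which moves the median gene of this contrast by -0.46 on the log2 scale, the log2(FPKM + 1) ratio became -0.18 for *Mpo*, -0.065 for *Elane* and -0.091 for *Prtn3*, so that all 5 were lower in GFP+ cells.

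Late neutrophil granule genes of the same libraries showed a larger ratio. All 15 measured were more than 2-fold higher in the library labelled BM GFP+ than in that labelled BM GFP-, with a median of 2.40 on the log2(FPKM + 1) scale, against 0.28 over the members and 0.026 over all genes. *S100a8*, which encodes a calcium-binding protein of the neutrophil cytosol, stood at 25286 and 3189 FPKM, which is 7.93-fold. *Camp*, the gene of the cathelicidin of secondary granules, had 4559.8 and 508, and *Ngp*, that of neutrophilic granule protein, had 4035 and 761. Genes of eosinophil, basophil and mast cell granules had a median log2 ratio of 2.41, with *Prg2* (eosinophil major basic protein) at 6588 and 767. The summed FPKM of the late neutrophil genes was 4.03 times that of the 5 members in BM GFP+ cells but 0.673 times in BM GFP- cells. In the FL it was 0.119 (GFP+) and 0.170 times (GFP-). Most of the late sum in the BM came from *S100a8* and *S100a9*, with 25286 and 14307 of 54171 in GFP+ and 3189 and 1871 of 7564 in GFP- cells. In the FL, 8 of the 15 late genes were listed at 0 in GFP+ and 4 in GFP- cells, *Retnlg* and *Mmp8* among both sets. Fewer genes of any kind were detected in the GFP+ library, with 12372 of all 23906 symbols above 0 against 15556 in FL GFP- cells. The zeros of the late genes were not tested against that background. Every primary granule gene was detected.

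**Figure D4:**
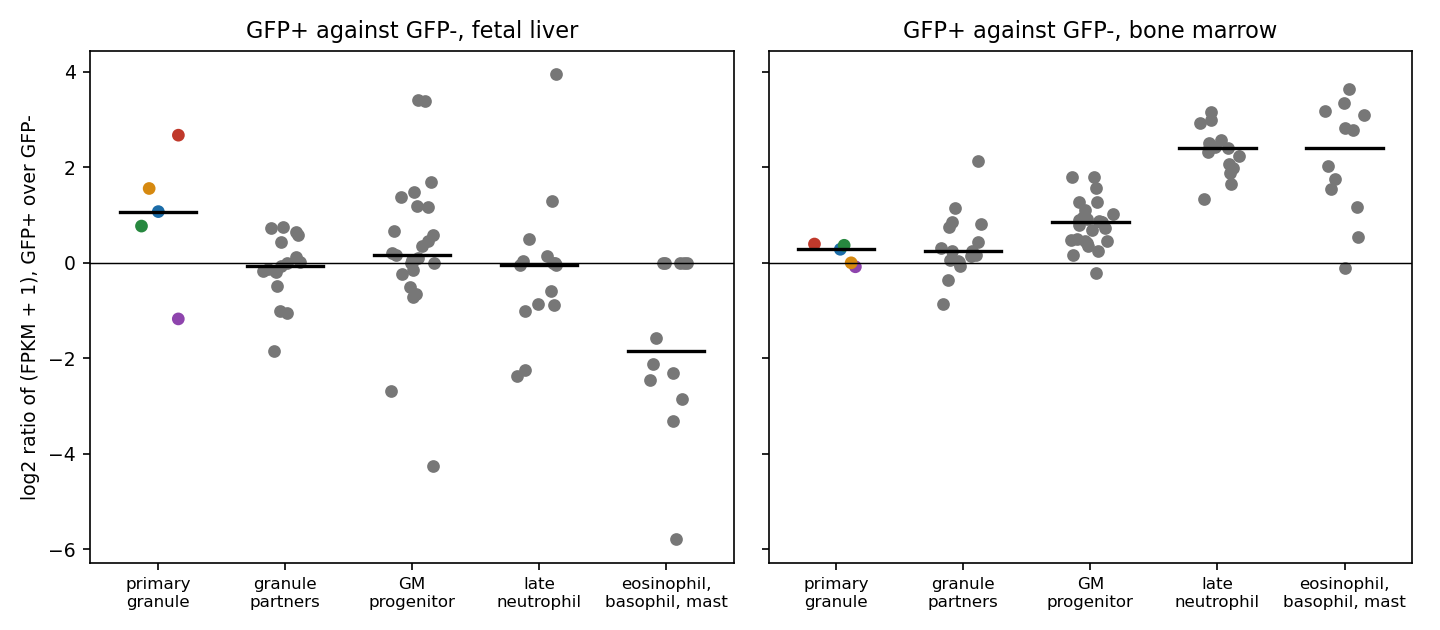
Log2 ratio of (FPKM + 1) in GFP+ over GFP- cells in the FL (left) and the BM (right), 1 point per gene that reached an FPKM of 1 in any library and a line at the median of each list; members are coloured as in the plot of FPKM by library. In the BM the members lie between -0.085 and 0.39, below the median of 2.40 of the late neutrophil genes, and in the FL they spread from -1.18 to 2.67.

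Over both tissues, the GFP term of the limma fit was passed by no member (0 of 5). The log2 difference of GFP+ from GFP- cells was 1.53 for *Elane* (SE 0.49, adjusted P = 0.73), 0.78 for *Ms4a3* (SE 0.47, adjusted P = 0.95), 0.68 for *Mpo* (SE 0.32, adjusted P = 0.84), 0.57 for *Prtn3* (SE 0.30, adjusted P = 0.89) and -0.63 for *Ctsg* (SE 0.36, adjusted P = 0.92). *Elane* alone had an unadjusted P under 0.05, at 0.013. In all, 13 of 11707 genes passed, or 0.111%, while 265 higher and 467 lower in GFP+ cells had an unadjusted P under 0.05. The GFP ratio in the FL exceeded that in the BM by 2.28 on the log2(FPKM + 1) scale for *Elane*, 1.56 for *Ms4a3*, 0.79 for *Mpo* and 0.40 for *Prtn3*, and lay below it by a difference of -1.09 for *Ctsg*. Whether the tissues differ in this respect was not tested, since 4 libraries leave no residual for an interaction.

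Genes that work with the granule enzymes were compared next, from a list of 17. Of the 16 tested, 5 passed in the tissue fit, all lower in the FL, against 2.17% of all genes tested. None passed for GFP (0 of 16), where only 0.111% of all genes did. Serine protease zymogens are activated by cathepsin C, and *Ctsc* had an FPKM of 63.2 and 66.5 in the GFP+ and GFP- fractions of the FL, then 125 and 71.4 in the BM, a tissue log2 difference of -0.54 (SE 0.39, adjusted P = 0.53). It was thus at most 1.98-fold higher in the BM, against at least 7.03-fold for the proteases it activates. *Srgn* encodes serglycin, the proteoglycan that binds the enzymes in the granule, and had 413, 409, 1290.4 and 1174 in the same order, a log2 difference of -1.58 (SE 0.29, adjusted P = 0.028). *Serpinb1a*, the gene of a cytosolic inhibitor of the 3 proteases, had 10.3 and 7.37 in the FL but 283 and 156 in the BM (log2 difference -4.44, SE 0.43, adjusted P = 0.0012). *Prss57*, a further azurophil serine protease gene, had 2.68, 1.36, 56.2 and 41.6. *Cst7*, which encodes the protease inhibitor cystatin F, was listed at 0 in both FL libraries and had 157 and 140.2 in the BM. *Lyz2*, the lysozyme gene, which macrophages and late neutrophils also express, was 4.37-fold higher in BM GFP+ (4551) than in BM GFP- cells (1042). *Bpi*, an azurophil gene in human neutrophils, was at most 1.09.

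Of 25 genes of GMPs and their regulators, 11 passed in the tissue fit with lower values in the FL, against 2.17% of all genes tested. None passed for GFP (0 of 25), where only 0.111% of all genes did. Among the transcription factors that act on granule genes, *Cebpe* and *Cebpa* were listed at 0 in both FL libraries, where *Mpo* and *Prtn3* stood above 100. In BM GFP+ and GFP- cells *Cebpe* had 35.1 and 11.2 and *Cebpa* 6.77 and 1.23. *Spi1*, the gene of PU.1, was at 155 to 315 in all 4 libraries, and its tissue difference did not pass (log2 difference -0.42, SE 0.32, adjusted P = 0.55). *Myb* was at 34.3 to 51.9. *Gfi1*, which encodes a repressor needed for granulocyte maturation, had 0.15 in GFP+ but 20.9 in GFP- cells of the FL, and 7.66 and 5.28 in the BM fractions. *Irf8*, a monocyte and dendritic cell regulator, had 15.1 and 4.79 in the FL but 320.0 and 132 in the BM (log2 difference -4.42, SE 0.43, adjusted P = 0.0012). *Csf3r*, the receptor gene for G-CSF, was at 16.9 to 36.0 in all libraries.

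The genes around the members were examined in the same way. Among 24 neighbours, taken as the 3 nearest listed protein-coding genes on either side of each member, 6 were listed at 0 in all 4 libraries. Counted at any level, 5 were more than 2-fold higher in the BM in both fractions. Of genes that reached an FPKM of 1, 32.1% of GFP+ and 20% of GFP- comparisons were more than 2-fold higher in the BM. The share for both fractions at once was not computed. Of all 23906 symbols, 18859 were above 0 in at least 1 library. Beside *Elane*, *Cfd*, the gene of the related serine protease complement factor D, was listed at 0 in 3 libraries and had 0.727 in BM GFP- cells. Beside *Prtn3*, *BC005764*, whose annotated span overlaps that of *Prtn3*, had 86.9 and 57.0 in the FL but 33.1 and 58.2 in the BM, and reads of the overlap cannot be assigned from FPKM. Next to *Mpo*, the peroxidase gene *Lpo* reached at most 0.321, whereas *Epx*, the eosinophil peroxidase gene, had 0, 8.89, 312 and 24.0 in FL GFP+, FL GFP-, BM GFP+ and BM GFP- cells. Next to *Ctsg*, *Mcpt8* of basophils was listed at 0 in the FL and had 214 and 72.4 in the BM, while the other five neighbours there reached at most 0.207. Both *Epx* and *Mcpt8* thus differed between the BM fractions by more than any member did.

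Likeness to the mean pattern of the 5 members was measured as the distance between profiles of log2(FPKM + 1) over the 4 libraries, each gene centred on its own mean, among the 8689 genes that reached an FPKM of 10 in any library. *Mpo* and *Ms4a3* lay nearest to that mean, at distances of 0.39 and 0.43, and *Prtn3* farthest, at 2.32. For *Ms4a3*, *Mpo* was the second closest of all genes, whereas the member closest to *Prtn3* was only the 683rd closest gene. Outside the set, genes among the nearest were *Gpr97* (distance 0.15), *Nkg7* (0.32), *H2-Q4* (0.56) and *Junb* (0.87). *Gpr97*, an adhesion G protein-coupled receptor gene of granulocytes, had an FPKM of 0.930 and 0.106 in the FL but 58.3 and 55.6 in the BM. *Nkg7*, a gene of granule-bearing cells, had 13.9 and 4.75 in the FL but 429.8 and 323 in the BM. A profile over 4 libraries is a coarse measure of likeness, and a correlation in place of the distance named 5 other genes.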

How the data were processed

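The authors mapped the reads, made with the SMARTer protocol, with Bowtie and TopHat and deposited FPKM from Cufflinks 2.2.1, with corrections for fragment bias and for reads that map several times. Cuffnorm then scaled the libraries to one another by a geometric size factor, which leaves their FPKM totals unequal. The submitters' processing notes name mm10 where the methods name NCBI37/mm9. The files give symbols only. Groups followed the labels. Members and gene lists were chosen with earlier results of these data known. Genes named are the 5 members, genes of the lists (those with high FPKM first), the 3 genes on either side of each member and the 5 nearest patterns, of which 1 is not reported here. Folds are ratios of FPKM as deposited, read against the 13609 genes that reached 1 FPKM anywhere. Tests used limma 3.58.1 (R 4.3.3) on log2(FPKM + 1), with tissue and GFP as terms. They used eBayes with trend and Benjamini-Hochberg adjustment over the 11707 genes at 1 FPKM or more in 2 or more libraries. The fit was also run on simulated data with an equal spread for every gene and no GFP effect. Those data differ from the real ones in both respects and do not show the error rate of the fit here. FPKM are not counts, so no count model was fitted. Other steps used Python 3.11.15.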

Additional observations from a re-analysis of the deposited data

Results flagged for a closer look

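The GFP ratio of *Ms4a3* had opposite signs in the tissues, at 1.55 on the log2(FPKM + 1) scale in the FL and -0.0019 in the BM, a difference of 1.56. The BM value is close to 0, each value rests on 1 library per fraction as labelled, and the difference was not tested.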

How the results depend on the processing

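All 5 members passed the fold threshold between the tissues in both fractions and none (0) between the BM fractions, also at thresholds of 1.5-fold and 4-fold, with both rescalings, with a pseudocount of 1 and without the filter. In the FL a threshold of 4-fold left 1 member (*Elane*) past it in place of 4. Scaling to equal FPKM totals turned the sign of the BM GFP ratio of *Mpo* (-0.18), *Elane* (-0.065) and *Prtn3* (-0.091). The tissue call held for all 5 members with a pseudocount of 0.1, without the filter, without the GFP term and with both rescalings, and for 0 without limma's trend. Leaving out 1 library in turn, with no block since none could then be fitted, left 0 to 4 members. It was 4, *Prtn3* being lost, without FL GFP+ or FL GFP- and 0 without BM GFP+ or BM GFP-, with lower values in the FL throughout. The GFP difference passed for no member (0) in any setting. Without the block it ran over the libraries left out from -1.99 to 3.34 for *Mpo*, -2.42 to 5.48 for *Elane*, -1.04 to 2.17 for *Prtn3*, -4.20 to 2.94 for *Ctsg* and -2.26 to 3.81 for *Ms4a3*, since 3 libraries leave tissue and GFP unbalanced. Its sign also turned without BM GFP+ cells (-1.60 for *Mpo*, -1.28 for *Elane*, -0.84 for *Prtn3*, -1.48 for *Ms4a3*) and, for *Ctsg*, without BM GFP- cells (2.40). Over all genes the tissue fit called 288 genes, against 0 without the trend, 80 with a pseudocount of 0.1, 189 without the filter, 176 without the GFP term and 0 to 95 with 1 library left out. The GFP fit called 13, against 0, 1, 11 and, without the tissue term, 4, and 0 to 62 with 1 library left out. A correlation in place of the distance shared 0 of the 5 nearest genes. No paired analysis was possible because the labels carry no replicate numbers, apart from the tissue and GFP terms of the fit, each of which blocks the other. The paper gives the unique mapped reads of each library, but the reads behind a single value are known only roughly.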
